A study of Bos indicus with 9 samples.

Results

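The stretch of chromosome 1 from 1300000 to 2800000 on the bovine assembly ARS-UCD1.2 was examined in the lists of open chromatin regions of hypothalamus, muscle, and liver. It holds the transcription factor genes OLIG1 and OLIG2, the interferon receptor genes IFNAR1 and IFNAR2, and SLC5A3. Every listed peak that overlapped the 1.5 Mb window by at least 1 bp was kept. These were 101 of 78528 peaks in hypothalamus, 19 of 40104 in muscle, and 17 of 22291 in liver, or 137 of 140923 in all. The peaks were taken by position, but the window itself was chosen by the presence and heights of peaks in these same lists, so their counts, lengths, and summits are a description and were not tested.

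OLIG1 and OLIG2 are basic helix-loop-helix transcription factors of the oligodendrocyte lineage, the glial cells that wrap axons of the brain and spinal cord in myelin, and OLIG2 also acts in the formation of motor neurons. IFNAR1 and IFNAR2 are the chains of the receptor that binds type I interferons at the cell surface. Beside them lie IL10RB, a chain shared by the receptors of interleukin 10 and of type III interferons, and IFNGR2, a chain of the receptor for interferon gamma. SLC5A3 is a transporter that brings myo-inositol, an organic osmolyte abundant in brain, into cells with sodium. In cattle the same interval holds the polled locus, where alleles that leave animals without horns have been mapped.

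The libraries were made by ATAC-seq, in which the Tn5 transposase cuts and tags the DNA it can reach. Tissue was taken at slaughter from 3 unrelated post-pubertal heifers of the indicine breed Brahman, alike in age and weight and given no treatment named in the labels. Hypothalamus, muscle, and liver of each animal gave 9 libraries, prepared from nuclei of frozen, ground whole tissue, so each list mixes the cell types of its tissue. The authors called 1 consensus list per tissue over the 3 heifers.

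For each peak the authors gave a signal value, the area under the curve (AUC), and a summit, the −log10 p at its highest point. Values of different lists are not on a common scale. A percentile is therefore given as the share of peaks of the same list, over all sequences, with the same or a lower value. On the numbered chromosomes and X lay 71028 of 78528 hypothalamus, 30483 of 40104 muscle, and 12063 of 22291 liver peaks. Percentiles thus depend on the peaks of other sequences, above all in liver. Heifers were combined before deposit, so no replicate error can be given and no tissue was tested against another. A place with no listed peak is one where no peak passed the authors' threshold, and it is not thereby shown to be closed. Fewer accessible cells and less access per cell cannot be told apart in these tissues.

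The labelled tissues could hardly be checked here. Of 33 genes listed as markers of brain, muscle, liver, immune, and endothelial cells, only OLIG1 had an annotated start on the part of chromosome 1 for which the authors' annotation was used, up to 97 Mb. Its start carried a peak in hypothalamus and none in muscle or liver. The window around OLIG1 was chosen on these same lists, so this is no independent check. Read depth was not analysed here. The lists hold no read counts, and the mapping statistics per sample that the authors supplied were not used.

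Hypothalamus peaks filled the window far more densely than those of the other tissues, and most of them had no counterpart there. The 101 hypothalamus peaks covered 95.6 kb or 6.38% of the window, the 19 muscle peaks 15.1 kb or 1.01%, and the 17 liver peaks 9.46 kb or 0.631%. Spread evenly, the peaks of chromosomes 1 to 29 and X would place 40.6, 17.4, and 6.89 peaks in a window of this length in hypothalamus, muscle, and liver. The window therefore held more hypothalamus and liver peaks than the mean and about the mean number of muscle peaks.

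In hypothalamus, 86 of the 101 peaks overlapped no muscle or liver peak (85.1%, Wilson 95% interval 76.9 to 90.8), against 74.8% of all hypothalamus peaks on chromosomes 1 to 29 and X. In muscle, 5 of 19 peaks had no overlap elsewhere (26.3%, 11.8 to 48.8), against 36.0% of the list. In liver it was 2 of 17 (11.8%, 3.29 to 34.3), against 7.78% of the list. Neighboring peaks are not independent, the window was chosen on these lists, and the intervals cover counting error only, so nothing is read from where a share of the list falls against them.

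**Figure D1:**
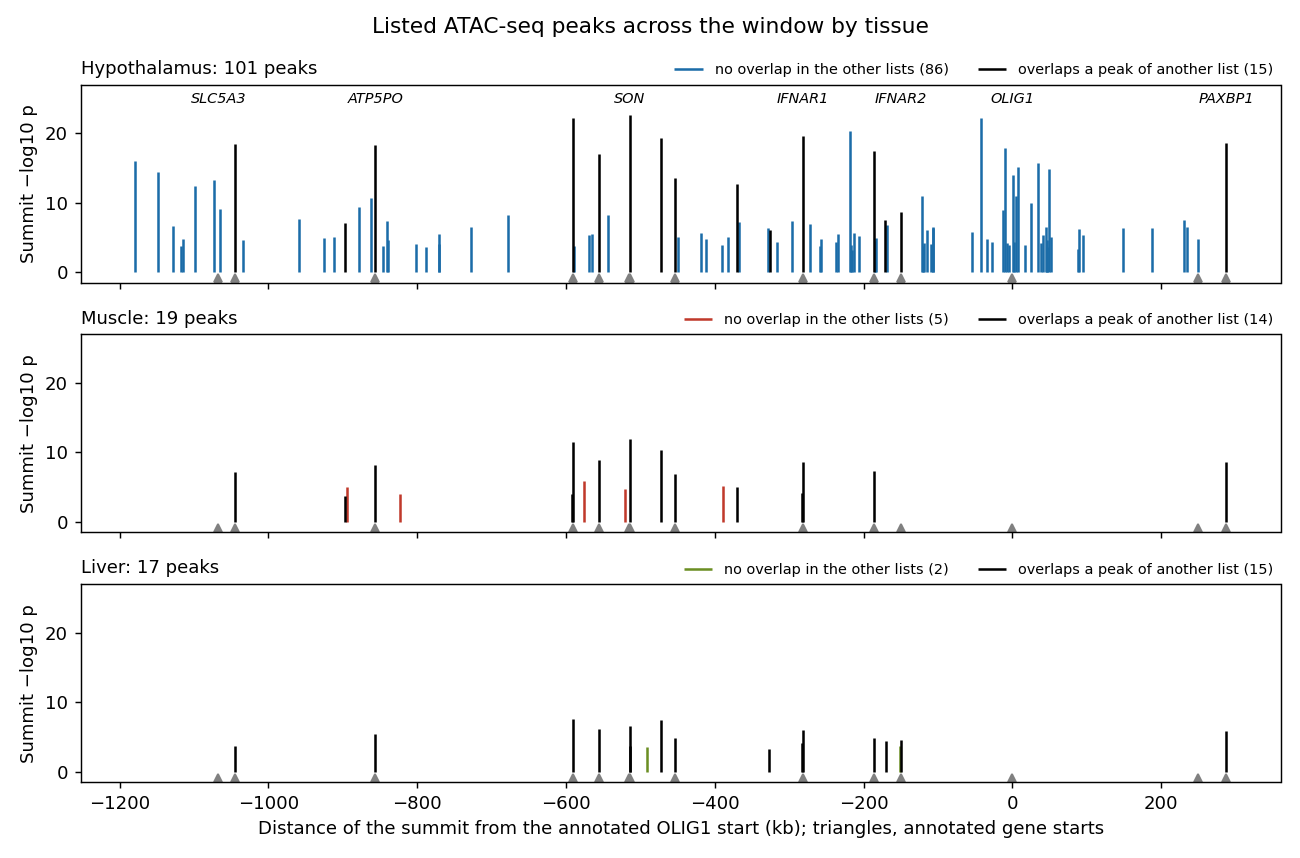
Listed peaks of hypothalamus, muscle, and liver across the window, each drawn as a line at its summit with the summit −log10 p as its height and placed by distance in kb from the annotated OLIG1 start, with gray triangles at annotated gene starts. Colored lines are peaks with no overlap in the other lists (86, 5, and 2), black lines overlap a peak of another list (15, 14, and 15), and around OLIG1 the lower panels are empty.

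By their medians, the shared hypothalamus peaks were taller and wider than the unshared ones. The 15 that overlapped a peak of another list had a median length of 1637 bp, a median AUC of 8339, and a median summit of 17.5 (percentile 94.6). The 86 found in hypothalamus alone had medians of 502 bp, 700.2, and 5.47 (percentile 43.2). The same contrast runs through the whole hypothalamus list, where shared peaks on chromosomes had a median summit of 11.8 and unshared peaks 5.35. A single unshared peak of the window, with a summit of 22.2, came close to the tallest shared peak at 22.5, and the next tallest unshared peak had 20.3. In length the order did not hold at the top. The longest peaks, of 6260, 4153, 3192, and 2991 bp, were unshared, and the longest shared peak had 2984 bp.

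By position, the window fell into stretches of different character. For description it was divided at 1.5, 2.1, 2.4, and 2.6 Mb into a SLC5A3 segment, a middle segment, an interferon receptor segment, an OLIG segment, and an end segment. The hypothalamus peaks covered 7.55% of the SLC5A3 segment, 4.11% of the middle segment, 7.35% of the interferon receptor segment, 14.8% of the OLIG segment, and 2.14% of the end segment. Of the muscle peaks 17 of 19, and of the liver peaks 15 of 17, lay in the middle and interferon receptor segments. These make up 600 and 300 of the 1500 kb and held 28 and 32 of the 101 hypothalamus peaks. Neither muscle nor liver had a peak in the OLIG segment.

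With no muscle or liver peak there, all 25 hypothalamus peaks of the OLIG segment were necessarily found in hypothalamus alone. Of all hypothalamus peaks on chromosomes 1 to 29 and X, 74.8% were. They covered 29.6 kb and ran from 53.6 kb on the IFNAR2 side of the annotated OLIG1 start to 95 kb on the other side, toward C1H21orf62. The OLIG1 start lies at 2499871 on the minus strand. It was covered by a peak from 2498446 to 2500881, 2436 bp long, with an AUC of 9973 and a summit of 14 (percentile 88.2). A smaller peak from 2501403 to 2501888, upstream of the gene, had an AUC of 375 and a summit of 4.3 (percentile 20.5).

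The peak over the start was not the tallest of its segment. That was a distal intergenic peak from 2457144 to 2460134, 2991 bp long and 39.7 kb from the OLIG1 start on the IFNAR2 side. It had an AUC of 20002 and a summit of 22.2 (percentile 99), the 16th highest summit and the 32nd largest AUC among the 53103 peaks of chromosomes 1 to 29 and X found in hypothalamus alone. No peak in the window except that over the CRYZL1 start had a larger AUC.

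Other tall peaks stood on both sides of OLIG1. On the IFNAR2 side, the peak from 2488996 to 2491089 lay 8.78 kb from the start and had an AUC of 9070 and a summit of 17.8 (percentile 95). On the C1H21orf62 side, the peak from 2506818 to 2507952 at 6.95 kb had a summit of 15.2 (percentile 90.6), and that from 2533571 to 2535095 at 33.7 kb had a summit of 15.8 (percentile 91.8). Each of these was taller than the peak over the OLIG1 start. A peak from 2504590 to 2505099, 4.72 kb away, reached 10.9, and one of only 230 bp from 2487160 to 2487389, 12.5 kb away, reached 9.

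A nearly unbroken stretch of accessible DNA lay farther out on the C1H21orf62 side. From 2540692 to 2552511, 6 peaks covered 10.6 of 11.8 kb (89.9%). The longest of them, from 2546794 to 2550946, had 4153 bp, an AUC of 11172, and a summit of 14.9 (percentile 90). A peak from 2542146 to 2545337 had 3192 bp and a summit of 6.43. The others were weaker, with summits of 5.33, 3.58, 4.65, and 4.98 (percentiles 41.1, 3.83, 28.7, and 35.3). When hypothalamus peaks on chromosomes were joined across gaps of up to 1 kb, 149 of the 59463 resulting runs were at least as long as this one.

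OLIG2 itself could not be placed. Its start is missing from the part of the annotation used, and in the gene order of another assembly, NIAB-ARS_B.indTharparkar_mat_pri_1.0, it is the next gene after OLIG1 on the side away from IFNAR2. The peaks on the C1H21orf62 side are thus the ones among which OLIG2 is to be sought, and none of them can be assigned to its promoter here. That side held 16 peaks over 17.9 kb with a summed AUC of 42007. The IFNAR2 side held 8 peaks over 9.18 kb with a summed AUC of 33064, of which the single peak 39.7 kb from OLIG1 gave 20002.

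**Figure D2:**
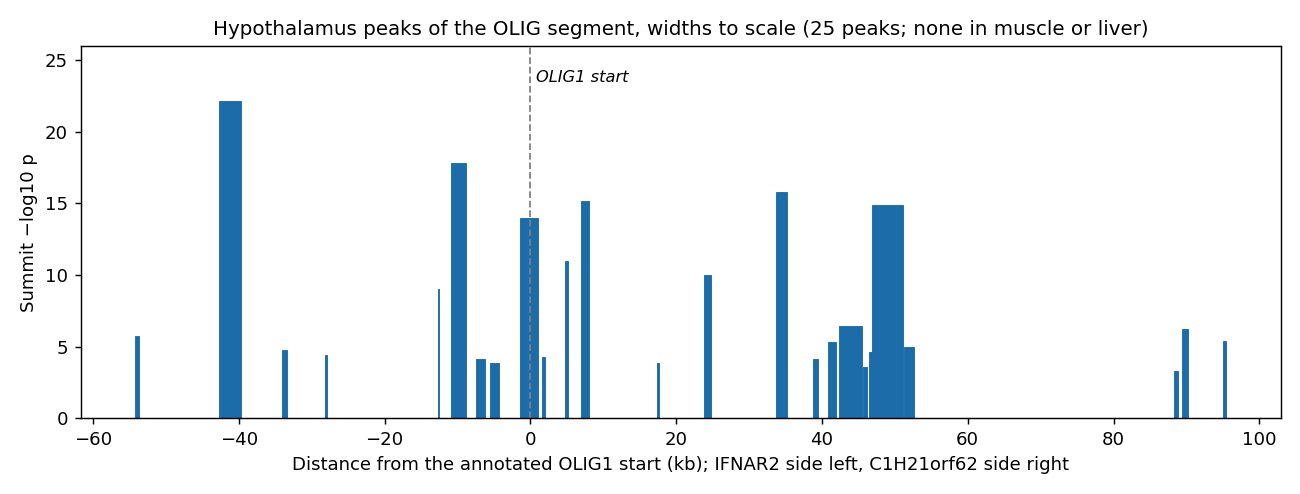
The 25 hypothalamus peaks of the OLIG segment, drawn with their widths to scale along the distance in kb from the annotated OLIG1 start (dashed line) and with the summit −log10 p as height. The tallest, at 22.2, stands 39.7 kb to the IFNAR2 side, the peak over the start reaches 14, and 6 neighboring peaks fill most of an 11.8 kb stretch on the C1H21orf62 side.

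Not every peak near OLIG1 was strong. The median summit over the 25 peaks was 5.39 (percentile 42), below the middle of the hypothalamus list, and 5 of them were in its top 10%. Both peaks between 2492376 and 2495515 were broad and low, with lengths of 1268 and 1114 bp and summits of 4.15 and 3.83, and their AUC per bp stood at percentiles 0.567 and 1.83. The segment thus combined a few of the tallest hypothalamus peaks with many weak ones.

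Set against the rest of the genome, the OLIG segment was among the stretches richest in accessible DNA found in hypothalamus alone. Chromosomes 1 to 29 and X were cut into 13114 windows of 200 kb. The 29550 bp covered by peaks found in hypothalamus alone exceeded 99.76% of the windows, whose median was 1042 bp, and 31 windows had more. With all hypothalamus peaks counted, 225 windows had more. Since the stretch was chosen on these same lists, these ranks are a description only. Windows without a peak were common in the other tissues, since 6873 of the 13114 had any bp covered in muscle and 4652 in liver.

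**Figure D3:**
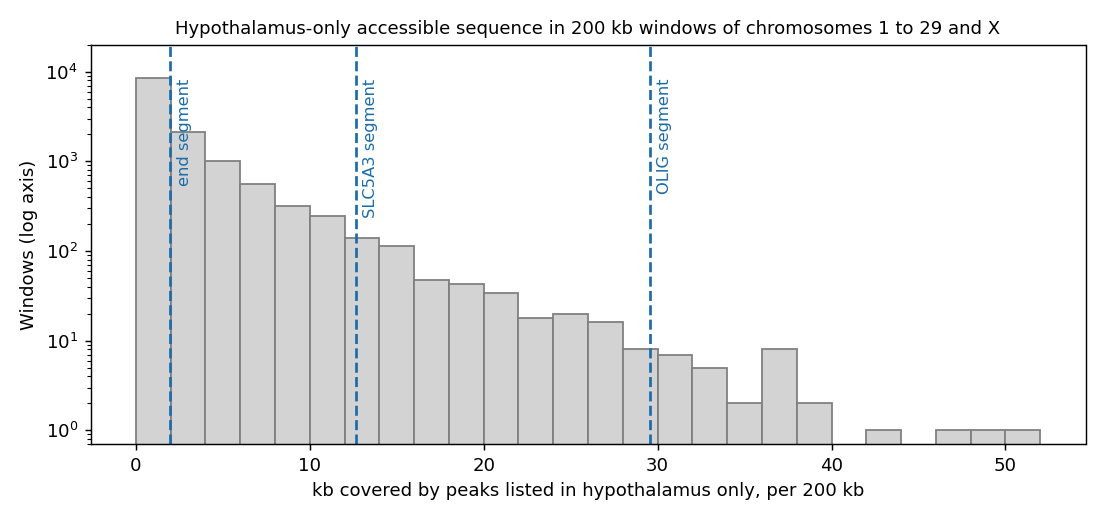
Number of 200 kb windows of chromosomes 1 to 29 and X (log axis) by the kb covered in each by peaks found in hypothalamus alone, in bins of 2 kb, with dashed lines at the SLC5A3, OLIG, and end segments. The OLIG segment lies far to the right, with 31 of 13114 windows above it, and the end segment, at 1961 bp, lies closer to the median of 1042 bp.

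The emptiness of muscle and liver around OLIG1 reached beyond the segment. In muscle no peak was listed from 2314316 to 2786123, a gap of 472 kb that held 42 hypothalamus peaks covering 37.2 kb. In liver the gap ran from 2350252 to 2786132, 436 kb, with 37 hypothalamus peaks covering 34.2 kb. Gaps of this size were in the upper part of each list, at percentile 96.49 of 30453 muscle gaps with a median of 14.8 kb and at percentile 88.08 of 12033 liver gaps with a median of 41.6 kb.

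The interferon receptor genes were accessible in all tissues at IFNAR1 and IL10RB, and less evenly at IFNAR2. At IFNAR1, whose start lies at 2218344 on the minus strand, the hypothalamus had 1 peak from 2216670 to 2219620, 2951 bp long, with an AUC of 16918 and a summit of 19.6 (percentile 97.2). Muscle and liver each had a pair of peaks within it. The main ones ran from 2217787 to 2219165 in muscle, with an AUC of 3710 and a summit of 8.56 (percentile 85.1), and from 2217871 to 2219146 in liver, with an AUC of 1974 and a summit of 6.07 (percentile 67.7). The lesser ones, from 2217075 to 2217671 in muscle and from 2217427 to 2217654 in liver, had summits of 4.2 and 4.13 and lay inside the gene, 0.673 and 0.69 kb from its start.

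IL10RB showed the same order at lower values. Its start at 2314038 carried a hypothalamus peak from 2313159 to 2314655 with a summit of 17.5 (percentile 94.6), a muscle peak from 2313508 to 2314315 with a summit of 7.37 (percentile 76), and a liver peak from 2314026 to 2314338 with a summit of 4.91 (percentile 46.2). Summits fell in this order at 84.5% of the 9803 regions covered in all lists on chromosomes 1 to 29 and X. In hypothalamus a pair of small peaks followed upstream of IL10RB within 3 kb, with summits of 4.49 and 4.86.

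IFNAR2 differed from its neighbors in having no muscle peak within 3 kb of its start at 2350080. The hypothalamus peak there, from 2349123 to 2350516, had an AUC of 2564 and a summit of 8.67 (percentile 71.6), far lower than at IFNAR1. The liver peak from 2349981 to 2350251 had 271 bp, an AUC of 471, and a summit of 4.55 (percentile 36.7). Liver also had a peak of its own from 2348780 to 2349011, 232 bp long and 1.069 kb from the start, with an AUC of 213.7 close to the list's lowest of 200.0 and a summit of 3.78. Within an IFNAR2 intron by the authors' annotation, a hypothalamus peak from 2329082 to 2329438 (summit 7.53) met a liver peak from 2329150 to 2329444 (summit 4.38).

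Away from the starts, the interferon receptor segment also held tall peaks found in hypothalamus alone. The tallest ran from 2280939 to 2282683, downstream of IL10RB, with 1745 bp, an AUC of 10359, and a summit of 20.3 (percentile 97.8). It was the 104th of the 53103 peaks of chromosomes found in hypothalamus alone by summit and the 408th by AUC. Together with both weak peaks beside it, it covered 3.58 of 3.96 kb. Between IFNAR2 and OLIG1, a peak from 2377359 to 2378113 had an AUC of 2515 and a summit of 10.9 (percentile 80.4).

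Between TMEM50B and IFNAR1, where the other assembly places IFNGR2, no gene start was annotated. A hypothalamus peak from 2128676 to 2130697, 2022 bp long with a summit of 12.7 (percentile 85.3), overlapped a muscle peak from 2129309 to 2129909 with a summit of 5.04 and no liver peak. A hypothalamus peak from 2172779 to 2173425 with a summit of 6.06 overlapped a liver peak from 2172873 to 2173403 with a summit of 3.29 (percentile 2.13) and no muscle peak. Whether either covers the IFNGR2 promoter was not tested.

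SLC5A3 had no peak within 1 kb of its annotated start in any list, and the microRNA genes MIR12045 and MIR2285BS were the other annotated genes of the window of which this was true. The start is annotated at 1432531 on the minus strand. The nearest peak, found in hypothalamus alone from 1434842 to 1435424, lay 2.311 kb upstream with 583 bp, an AUC of 2228, and a summit of 9.08 (percentile 73.6). In the gene order of the other assembly SLC5A3 and MRPS6 overlap. The start of MRPS6, a protein of the mitochondrial ribosome, at 1455166, was covered in all lists, with summits of 18.4 (percentile 95.8) in hypothalamus, 7.2 (percentile 74.4) in muscle, and 3.77 (percentile 12.3) in liver.

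Around SLC5A3 the hypothalamus peaks tended to be tall. The segment had 10 hypothalamus peaks, against a median of 3 in 200 kb windows of the genome. Of these, 9 were found in hypothalamus alone (90%), against 74.8% of all hypothalamus peaks on chromosomes 1 to 29 and X. The median percentile of all 10 was 79.1, against 52.5 over the window. The longest peak of the window, from 1397008 to 1403267, had 6260 bp, an AUC of 17074, and a summit of 12.5 (percentile 84.6), and by AUC it was the 72nd of the peaks found in hypothalamus alone on chromosomes. It lay in an intron by the authors' annotation. Peaks from 1319878 to 1321613, from 1349947 to 1351501, and from 1426437 to 1427852 had summits of 16, 14.4, and 13.3. In the genome-wide comparison of 200 kb windows, 416 had more bp covered by peaks found in hypothalamus alone than the 12650 bp here. Muscle and liver each had 1 peak in the segment, that of MRPS6, against medians of 1 and 0 peaks in 200 kb windows.

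Across the 14 annotated genes of the window that are not microRNA genes, a peak lay within 1 kb of the start in 13 genes in hypothalamus, 10 in muscle, and 11 in liver. On the annotated part of chromosome 1, the shares were 71.7% of 279 gene starts in hypothalamus, 61.6% in muscle, and 46.2% in liver, among starts that the annotation gives as nearest to some peak. The 10 genes with a peak in muscle had one in all lists. IFNAR2 lacked a muscle peak, OLIG1 and C1H21orf62 lacked muscle and liver peaks, and SLC5A3 lacked all.

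Several genes with a peak in every tissue serve functions that most cells share. They include ATP5PO, a subunit of the mitochondrial ATP synthase, DONSON, which acts in DNA replication, SON, an RNA splicing factor, and GART, an enzyme of purine synthesis. Hypothalamus summits at these starts were 18.4 at ATP5PO, 22.2 at CRYZL1, 17 at DONSON, 22.5 over SON and GART, 13.5 at TMEM50B, and 18.6 at PAXBP1. The OLIG1 value of 14 was just above that of TMEM50B. Among the other starts, only IFNAR2 and C1H21orf62, whose peak from 2749149 to 2749497 reached 4.78, had lower hypothalamus summits. In muscle the highest were 12 over SON and GART and 11.5 at CRYZL1, and in liver 7.64 at CRYZL1 and 6.64 at SON.

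**Figure D4:**
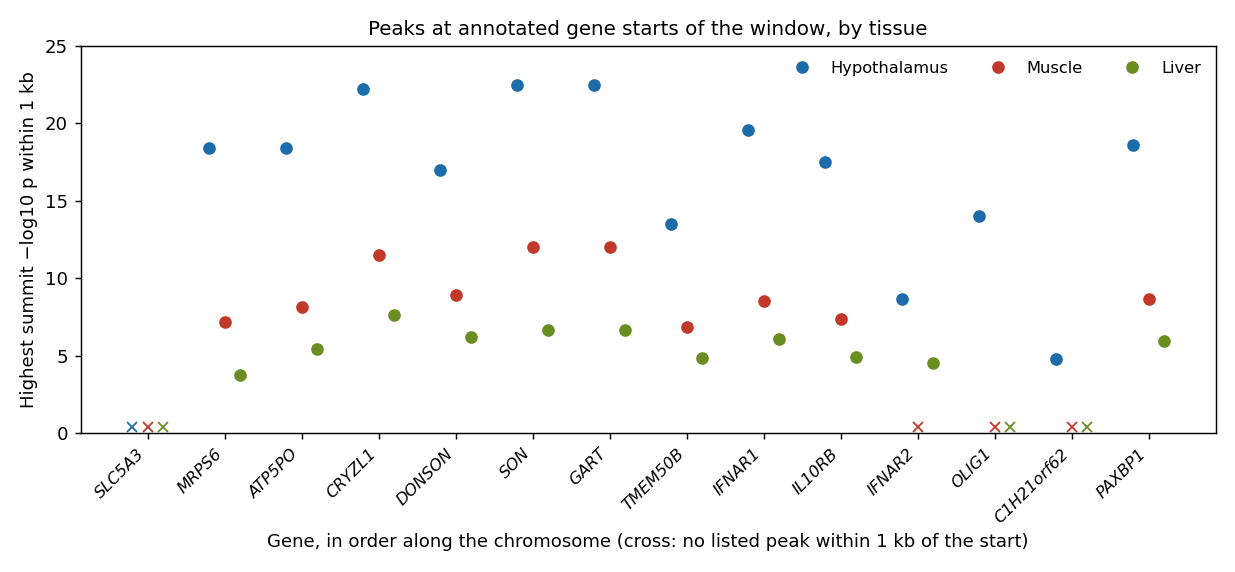
Highest summit −log10 p within 1 kb of each of the 14 annotated gene starts, in order along the chromosome, for hypothalamus, muscle, and liver, with crosses where no peak was listed. In the 10 genes with a value in every list the hypothalamus is highest and the liver lowest, OLIG1 and C1H21orf62 have a hypothalamus value alone, and SLC5A3 has none. Values of different lists are not on a common scale. The order is that of 84.5% of the 9803 regions of chromosomes 1 to 29 and X covered in all lists.

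Shared peaks were more frequent near gene starts than away from them in each list, in the window as on the annotated part of chromosome 1. Of the hypothalamus peaks, 19 lay within 3 kb of an annotated start, microRNA genes included, and 10 of them were shared (52.6%, against 64% on the annotated part), with a median summit of 13.5. Of the 82 farther away, 5 were shared (6.1% against 13.2%), with a median summit of 5.89. In muscle 11 of 12 peaks near a start were shared (91.7% against 90.2%) and 3 of 7 farther away (42.9% against 47%). In liver 12 of 13 peaks near a start were shared (92.3% against 98.6%) and 3 of the 4 farther away (75% against 69.8%). Distal intergenic peaks made up 65.3% of the hypothalamus peaks of the window, against 57.9% on the annotated part of chromosome 1. Introns held 9.9% against 24%. Promoters, within 3 kb of a start, held 63.2% of the muscle peaks against 28% and 76.5% of the liver peaks against 40.9%. The starts of OLIG2, IFNGR2, and DNAJC28, and perhaps of other genes, were not annotated here. Peaks near such starts may have counted as farther away. Peaks near or within such genes, introns included, may have counted as distal intergenic. How far the shares of intron and distal intergenic peaks depend on this was not tested.

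Constitutive regions, the stretches covered in all lists, numbered 12, and 11 of them lay within 1 kb of a gene start. They fell in 10 hypothalamus peaks, since SON with GART and IFNAR1 each had a pair. The exception, from 2027336 to 2027958, lay between GART and TMEM50B, 18.77 kb from the nearest annotated start. Its summits of 19.3 in hypothalamus, 10.3 in muscle, and 7.4 in liver (percentiles 96.9, 92.5, and 80.9) were among the highest of the window in each list. The other assembly places DNAJC28, which has no annotated start here, between these genes.

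At these regions the hypothalamus peak was the widest and the liver peak mostly the narrowest. Length fell from hypothalamus to muscle to liver in 11 of 12, against 78.2% of the 9803 such regions on chromosomes 1 to 29 and X, and TMEM50B was the exception with 1637, 676, and 755 bp. The summit fell in the same order in 12 of 12, against 84.5%. The muscle and liver peaks lay inside the hypothalamus peak in 12 of 12, against 82.4%. These orders are those of most regions of the lists. The summits of the lists lay 0 to 787 bp apart, with a median of 37.0 bp, and at DONSON all fell on the same base.

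Within their own lists the peaks of a region could rank very differently. At CRYZL1 they stood at percentiles 99, 95.5, and 82.2 in hypothalamus, muscle, and liver. At MRPS6 they stood at 95.8, 74.4, and 12.3. The liver peak over the GART start, 262 bp long, stood at percentile 9.32, inside a hypothalamus peak at 99.1 shared with SON. Part of this came from peaks off the numbered chromosomes and X. With those left out, the CRYZL1 peaks lay close together, at 99.07, 98.26, and 94.69. The MRPS6 peaks remained far apart, at 95.78, 78, and 17.92. So did the liver peak at GART, at 13.57, and its hypothalamus peak, at 99.23.

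**Figure D5:**
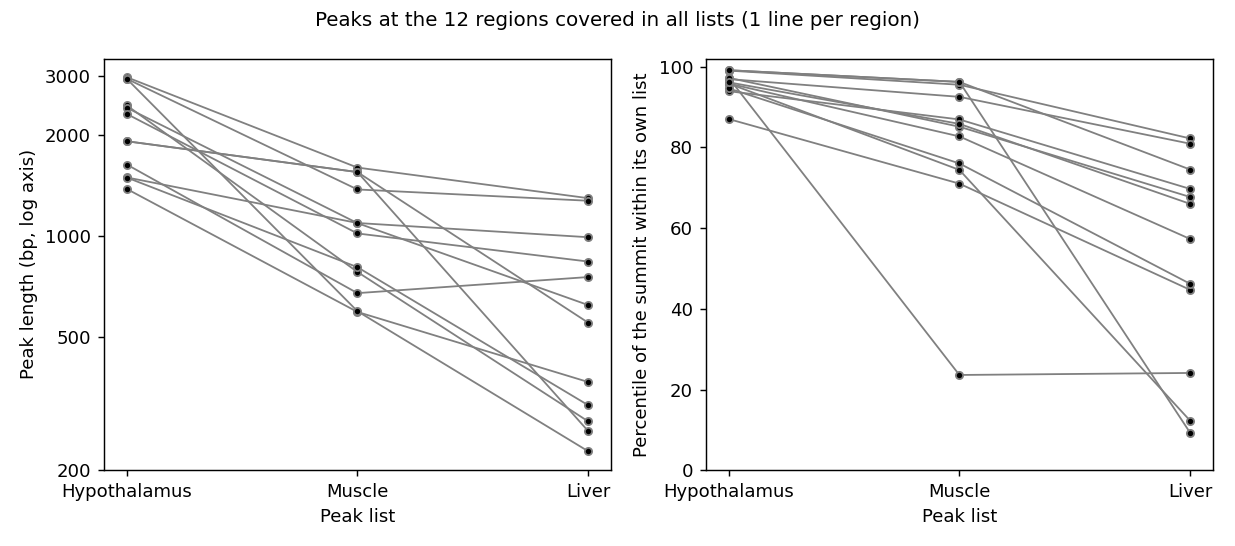
Length in bp on a log axis (left) and percentile of the summit within its own list (right) of the hypothalamus, muscle, and liver peaks at the 12 regions covered in all lists, with 1 line per region. All lines but that of TMEM50B fall in length from left to right, and the liver percentiles, over all sequences, spread from 9.32 to 82.2.

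The few peaks found in muscle or liver alone were modest. The muscle peaks ran from 1604904 to 1605199, from 1676522 to 1676983, from 1923118 to 1923554 in a CRYZL1 intron, from 1978517 to 1979665 over the microRNA gene MIR6501, and from 2110035 to 2110444. Their summits lay between 3.99 and 5.93, with a median percentile of 45.4. The liver peaks were the one at IFNAR2 and one from 2007978 to 2008320 in a GART exon with a summit of 3.54. None of these was in the top 10% of its list.

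The lists differ in size, and this moves with the share of unshared peaks. With the 12063 peaks of highest summit on chromosomes kept in each list, the window held 22 hypothalamus, 11 muscle, and 17 liver peaks. The hypothalamus peaks without overlap were then 54.5%, against 36.8% of the list. For muscle they were 9.09%, or 1 of 11, against 31.4%, and for liver 29.4% against 29.1%, so the order of muscle and liver turned around. The OLIG segment kept 6 hypothalamus peaks over 14334 bp. Its lack of muscle and liver peaks could not change, since this setting only removes peaks.

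The bounds of the window cut no peak. The last hypothalamus peak before it ended at 1170690 (summit 7.87) and the first inside began at 1319878 (summit 16). The last inside, over PAXBP1, ended at 2787983 (summit 18.6), and the first beyond ran from 2827037 to 2828740 (summit 21). In muscle and liver the first peaks inside were those of MRPS6 and the last those of PAXBP1. The nearest outside ended at 1118970 in muscle (summit 12) and 1118695 in liver (summit 8.39), and began at 2827169 (summit 10.7) and 2827322 (summit 6.38).

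Other genes of the same pathways could not be followed far. Of 28 genes of the oligodendrocyte lineage, 21 of interferon and interleukin 10 receptor signaling, and 8 of organic osmolytes, 1, 3, and 1 had an annotated start on the part used, and these were OLIG1, then IFNAR1, IL10RB, and IFNAR2, then SLC5A3.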

How the data were processed

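The authors used HISAT2 to align the reads to ARS-UCD1.2, keeping multiple alignments. Peaks were called by them with Genrich 0.6.1 in ATAC-seq mode, with PCR duplicates and the mitochondrial chromosome left out. Reads with several alignments counted as fractions at each place. The p values of the 3 heifers were combined by Fisher's method into 1 list per tissue, so values for single heifers were not used here. Read depth was not used either. The signal deposited for each peak is an AUC derived from −log10 p. Its value per bp in some peaks, such as 0.346, is lower than the authors' p threshold would give over every base. It may thus count only the area above that threshold, which was not tested. The −log10 p deposited at the summit was not corrected for multiple tests. Unlike read counts, neither was scaled between lists, so percentiles were taken within each list.

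Starts, counted from 0 in the lists, are printed from 1. Overlaps of at least 1 bp were computed in python 3.11.15 with numpy 2.4.6 and pandas 2.3.3, Wilson intervals with scipy 1.17.1, and plots with matplotlib 3.10.9. Tested on simulated lists, 5 of 5 checks of overlaps and coverage returned the planted values. Joining peaks across gaps into runs was not among the checks. Peaks were assigned to segments by midpoint. Genomic features, gene starts, and nearest genes came from the authors' supplementary ChIPseeker annotation, up to 97 Mb of chromosome 1. The window, its genes, and the gene lists were chosen with earlier results of these data known.

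The rule for naming took the 5 genes and all annotated genes of the window, peaks within 3 kb of the 5 genes, the 10 hypothalamus peaks highest by summit and by AUC, peaks found in muscle or liver alone, regions covered in all 3 lists, and peaks at the window bounds. Other peaks were named after their values were seen. Alternatives were a summit of at least 5, equal numbers of peaks, other overlap rules, and other window sizes and measures.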

Additional observations from a re-analysis of the deposited data

How the results depend on the processing

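Of 65 alternative values of 20 results, 50 stayed within 1.5 times the main count or within its interval, and 15 moved. With a summit of at least 5, the window held 66 hypothalamus and 7 liver peaks, liver covered 5950 bp and 0% of its peaks were found in liver alone, 7 regions were covered in all lists, the OLIG segment held 14 peaks, its percentile among 200 kb windows, 98.28 with all hypothalamus peaks, was 97.63, and 1 gene of the fixed lists had a liver peak at its start in place of 3, below the 2 of muscle. With equal numbers of peaks per list, the window held 22 hypothalamus and 11 muscle peaks, 54.5% and 9.09% of them found in 1 tissue alone. Muscle then fell below liver, which had 17 peaks and 29.4%, where it had stood above it, and the OLIG segment held 6 peaks. By number of peaks, the percentile of the OLIG segment was 97.88. With windows of 100 kb, only the middle 100 kb of the segment was ranked, at 99.44. Apart from these settings' own construction, which keeps fewer peaks, the cause was not tested. No paired analysis was possible because each list was combined over the heifers before deposit, and for the same reason no heifer could be left out in turn. Motif counts were not run, since no sequence was used here. Peaks under the authors' threshold cannot be told from closed DNA.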
